A study of Zea mays with 2 samples.

Results

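Of 11710 positions listed in RNA-sequencing data of maize endosperm, 403 carried more than 1 row of FPKM values (FPKM is a density of sequenced fragments corrected for transcript length and library size), and these 403 shared positions with their 833 rows are described here. They were found by taking every chromosome, start and end that occurred at least 2 times among the 12140 rows. In all, 380 positions had 2 rows, 19 had 3 and 4 had 4. The shared positions made up 3.44% of all positions and 6.86% of all rows. The tissue was endosperm collected 15 days after pollination from kernels of the rea1 mutant and from kernels of wild type (WT). The labels give no other allele, treatment, inbred background or count of kernels for either genotype. Although the series' design text speaks of triplicates, each genotype has 1 file with a single value per row, so each is treated as 1 library. With nothing to measure replicate error from, no difference below carries a test.

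Endosperm is the part of the cereal kernel that stores starch and protein, and in mid-development its RNA is dominated by a small number of storage protein transcripts. The gene disrupted in rea1 is known to encode a maize counterpart of midasin, a large AAA-type ATPase needed for maturation and nuclear export of the large ribosomal subunit. A stretch of genome can yield several transcripts when 1 gene is spliced in alternative ways, when genes overlap, or when closely spaced copies are joined into one transcribed unit. Short sequencing reads from such a stretch can match more than 1 transcript, and programs that estimate FPKM divide these reads among the transcripts by a model. The values of rows that share a position may then depend on each other, while their sum depends less on the division.

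The files do not say whether rows of one position are splice forms, overlapping genes or neighbouring copies. They pair no gene name with a row, so the endosperm label could not be checked against marker genes and no position is named as a gene. Rows are numbered below in the order in which the files list them within a position. Coordinates are those of the files, with starts counted from 1, in a build not given in the sources used here. No genome sequence of that build was used.

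Shared positions were longer than the rest and were more often expressed. Their median span from start to end was 6611 bp, ranging from 609 to 150713 bp, against 2062 bp for the 11307 positions with 1 row. None was shorter than 500 bp, while 1214 of the single-row positions were (10.7%). A span of 15000 bp or more was found for 77 shared positions (19.1%) and for 3.87% of single-row positions. No listed position overlapped another, in either class. Rows of one position were often far apart in the files, with a median of 72 lines between the first and the last. They stood on consecutive lines at 29 positions and over 1000 lines apart at 166. No 2 rows of one position had the same pair of values above 0.

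Chromosome 1 held 89 shared positions, which was 4.71% of its listed positions, the highest proportion among the 10 chromosomes. Chromosome 9 had the lowest, with 19 shared positions or 2.22%. None lay on a scaffold. The share of all listed positions on scaffolds is not given here, so this does not set shared positions apart.

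At 316 of the 403 shared positions (78.4%), at least 1 row reached 1 FPKM in at least 1 library, against 5513 of 11307 single-row positions (48.8%). Within classes of span the order was the same. For spans of 5000 to 10000 bp the proportions were 85.2% of shared and 72.8% of single-row positions, and for spans of 2000 to 5000 bp they were 72.8% of shared and 57.4% of single-row positions. A position with several rows has more chances to pass this limit than one with a single row, and the size of that effect was not tested. Of the other 87 shared positions, 14 were listed at 0 in every row of both libraries and 73 stayed below 1 FPKM. This split is not given here for single-row positions. Just inside the limit lay a position of chromosome 6 (353216 to 358652), whose highest value was 0.64 FPKM in rea1 against 1.03 in WT. Just outside it lay one of chromosome 4 (61741038 to 61747904), whose highest value was 0.99 FPKM in rea1 against 0.97 in WT.

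Rows below 1 FPKM were common at these positions, as they were among all rows. Of the 833 rows, 482 reached 1 FPKM, while 5995 of all 12140 rows did, so low rows are not particular to shared positions. Of the 833, 121 were listed at 0 in both libraries. Listed at 0 were 194 rows in rea1 and 181 in WT. For these 3 counts no count over all 12140 rows is given here, so they do not set shared positions apart. At 158 of the 316 expressed positions a single row reached 1 FPKM, at the other 158 at least 2 rows did, and at 7 at least 3 rows did. Of the 482, 9 were listed at 0 in WT (1.87%), the highest at 12.8 FPKM in rea1, and 14 were listed at 0 in rea1 (2.90%), the highest at 10.7 FPKM in WT. Among all 5995 rows at 1 FPKM or more, 3.2% were listed at 0 in WT and 3.75% in rea1.

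The summed FPKM of all 833 rows was lower in rea1, and 1 position accounted for the direction. The sum was 21207 FPKM in rea1 against 44421 in WT, which was 4.68% of the sum over all rows in rea1 and 9.73% in WT. A single position of chromosome 4, from 5098147 to 5142076 and called position A here, held 48.7% of the members' sum in rea1 and 81.5% in WT. Without it the remaining 402 positions summed to 10871 FPKM in rea1 against 8210 in WT, a ratio of 1.32. A ratio of sums is weighted to abundant positions, and the median log2 ratio over the 316 expressed positions was 0.12. In bulk endosperm, fewer cells with a transcript and less transcript per cell cannot be told apart.

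Position A was the only one of the 316 with rows at 10 FPKM or more that were 2-fold apart in opposite directions. It spanned 43930 bp and had 3 rows. Row 2 led in both libraries, with 8543 FPKM in rea1 against 31839 in WT, 3.73-fold lower in rea1. Row 3 had 1434 FPKM in rea1 against 4248 in WT, 2.96-fold lower. Row 1 went the other way, with 359 FPKM in rea1 against 125 in WT, 2.89-fold higher. The abundant rows of this position were thus both lower in rea1 and the least abundant one was higher. Row 1 made up 3.48% of the position's sum in rea1 and 0.34% in WT, and row 2 made up 82.7% in rea1 and 87.9% in WT. The sum of the 3 rows was 10336 FPKM in rea1 against 36211 in WT, 3.50-fold lower in rea1. Whether reads were divided differently among the rows in the libraries was not tested.

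Across the 316 expressed positions the summed level was mostly similar in rea1 and WT. Sums were compared as log2(sum + 1) in rea1 minus the same in WT, so the pseudocount of 1 FPKM shrinks the ratios of low positions. By this measure 28 positions were at least 2-fold higher in rea1, 24 were at least 2-fold lower, and 264 lay within 2-fold. Over all 5829 expressed positions 12.4% were 2-fold higher and 9.69% were 2-fold lower, 22.1% together. The shared positions, at 8.86% and 7.59%, lay below this background in both directions. Their median log2 ratio was 0.12, against 0.09 for the single-row positions. Scaling rea1 so that rows at 10 FPKM or more in both libraries have a median log2 ratio of 0 removes a shift of 0.23 on the log2 scale from the rea1 values. The counts then became 15 higher and 31 lower, and the median of the shared positions turned to -0.07. Scaling to a trimmed mean instead gave 23 higher and 26 lower with a median of 0.06, so the balance of counts turned under both scalings and the median under the first alone. Both shifts were taken from all rows, and scaled counts are given here for the shared positions alone. They do not set the shared positions apart from the rest.

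Shared positions differed less often than single-row positions of like level at 10 FPKM and above, but not at 1 to 10 FPKM and not within classes of span. Among positions with a mean sum of 10 to 100 FPKM, 10 of 155 shared positions were 2-fold higher and 6 were 2-fold lower, together 10.3%, against 18.7% of 1799 single-row positions. At 100 FPKM or more, 7 of 21 shared positions differed (33.3%), against 53.0% of 215 single-row positions. At 1 to 10 FPKM the shares were 20.4% of 137 shared and 19.7% of 3061 single-row positions. Below a mean of 1 FPKM there were 3 shared positions, of which 1 differed, and 41.1% of 438 single-row positions did. Grouped by span, 14.9% of 121 shared positions of 5000 to 10000 bp differed, against 9.63% of 997 single-row positions, and at 10000 bp or more the shares were 11% of 100 shared and 8.03% of 461 single-row positions. At 2000 to 5000 bp they were 16% of 75 shared and 15.5% of 2079 single-row positions, and below 2000 bp they were 55% of 20 shared and 39.4% of 1976 single-row positions. Positions of one library are not replicates, so these shares describe the 2 libraries and were not tested.

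**Figure D1:**
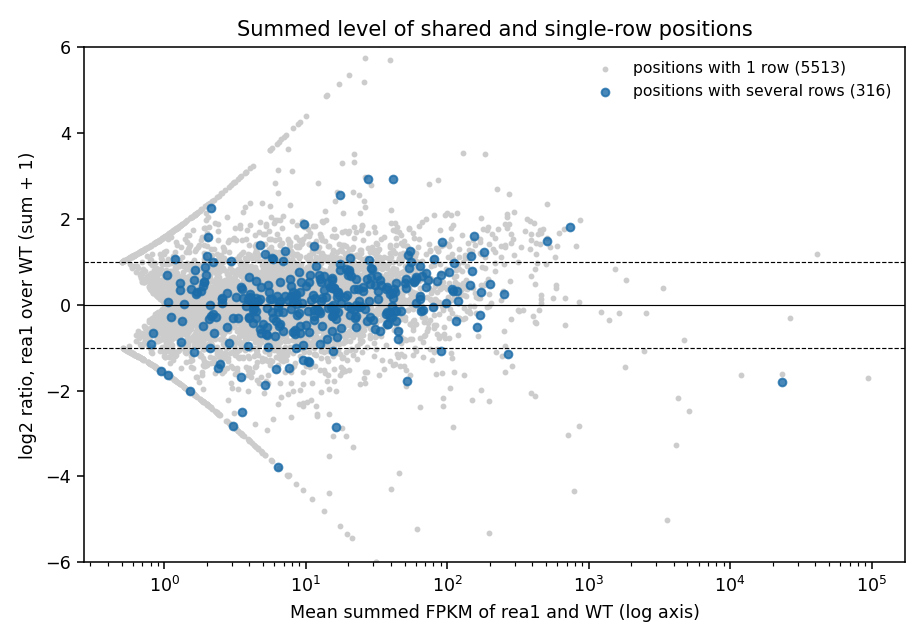
The log2 ratio of the summed FPKM (rea1 over WT, pseudocount 1) is plotted against the mean summed FPKM on a log axis, with the 316 expressed positions of several rows in blue and the 5513 single-row positions in grey, and dashed lines at 2-fold. Most blue points lie within the dashed lines, position A lies far to the right at -1.81, and 15 single-row positions fall outside the plotted range of 6 on either side.

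The highest summed levels above WT were found at positions led by 1 row. On chromosome 6, at 4596812 to 4616642, row 1 had 1141 FPKM in rea1 against 320 in WT, 3.57-fold higher, while row 2 had 3.16 FPKM in rea1 against 4.63 in WT. On chromosome 4, at 36910205 to 36917779, row 2 had 741 FPKM in rea1 against 261 in WT, 2.84-fold higher, while row 1 had 3.72 FPKM in rea1 against 2.40 in WT. These 2 and position A were the only shared positions whose sum reached 500 FPKM in either library. In both, the minor row stayed below 5 FPKM in each library and its difference was less than 2-fold.

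The same arrangement was found at other abundant positions, chosen after their values were seen. On chromosome 4, at 241293316 to 241302905, the leading row had 225 FPKM in rea1 against 67.8 in WT, and the minor row had 7.14 FPKM in rea1 against 7.44 in WT. On chromosome 5, at 163150789 to 163158027, the leading row had 249.8 FPKM in rea1 against 103 in WT, and the minor row had 5.17 FPKM in rea1 against 4.63 in WT. Among all 52 positions whose sum differed by 2-fold, the row with the largest difference carried a median of 94.5% of the difference in the sum, and at 34 of them it carried 90% or more. That row was picked for its difference, and no such figure was computed for the other positions. Over the expressed positions the highest row held a median of 94.1% of the sum in rea1 and 92.3% in WT. A value near these follows from the shares and does not set the 52 apart.

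Some positions differed with all their rows in nearly the same proportion. The highest log2 ratio among the 175 positions with a row at 10 FPKM or more was found on chromosome 1 at 258105155 to 258107917 (position D). Its row 2 had 36.2 FPKM in rea1 against 3.99 in WT, 9.07-fold higher, and its row 1 had 13.3 FPKM in rea1 against 1.60 in WT, 8.32-fold higher. The leading row therefore made up 73.2% of the sum in rea1 and 71.4% in WT. The next, also on chromosome 1, at 19103230 to 19104089 (position E), had 60.5 FPKM in rea1 against 7.08 in WT in row 2, 8.55-fold higher, and 13.7 FPKM in rea1 against 1.76 in WT in row 1, 7.78-fold higher. Its leading share was 81.5% in rea1 and 80.1% in WT. Another, on chromosome 10 at 65437299 to 65438594 (position F), had 22.7 FPKM in rea1 against 3.18 in WT in row 1, and 7.99 FPKM in rea1 against 1.19 in WT in row 2, and its leading share was 73.9% in rea1 and 72.8% in WT. At these 3 positions the level differed by 6.74-fold to 9.07-fold in every row, while the shares moved by less than 2 percentage points. Their spans of 2763, 860 and 1296 bp were short for shared positions. Row 1 of position E stood for a rough estimate of 14.1 fragments in WT, so its ratio is uncertain. Among positions differing 2-fold in sum, 24 kept their leading row and had at least 2 rows reaching 1 FPKM. At 13 of these 24 the share changed by under 5 points, also where 1 row held nearly the whole sum.

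The next ratios were of the other kind, with the difference in 1 row. On chromosome 8, at 105901753 to 105905412, row 1 had 12.8 FPKM in rea1 and was listed at 0 in WT, while row 2 had 3.09 FPKM in rea1 against 3.56 in WT. After it came the chromosome 6 position described above, whose sum was 3.53-fold higher in rea1.

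**Figure D2:**
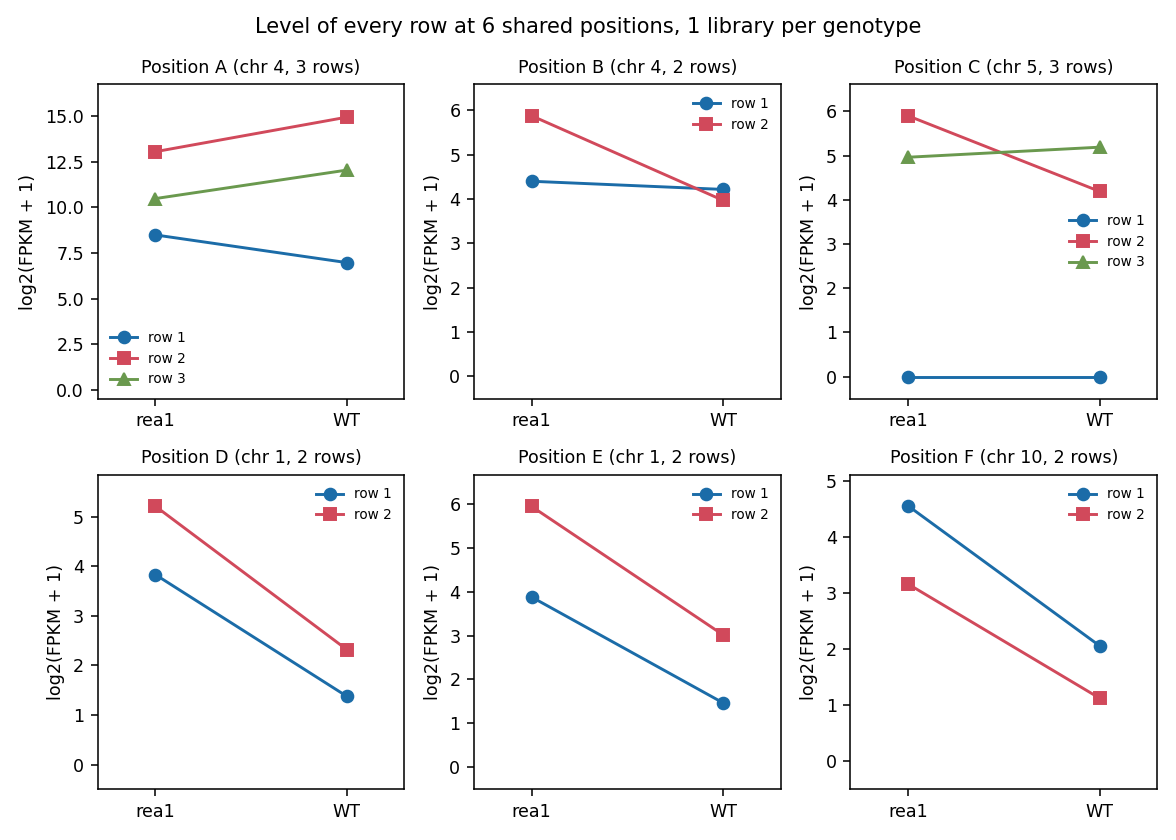
Level of every row as log2(FPKM + 1), with rea1 at the left and WT at the right of each panel and 1 line per row, for 6 shared positions with 1 library per genotype. In positions D, E and F both lines are higher in rea1 and nearly parallel, in positions B and C the lines cross, and in position A rows 2 and 3 are lower in rea1 and row 1 is higher.

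The lowest ratios among positions with a row at 10 FPKM or more were led by one on chromosome 8 at 141556314 to 141560264. Row 2 had 3.24 FPKM in rea1 against 18.7 in WT, 5.79-fold lower, and row 1 was listed at 0 in rea1 and had 10.7 FPKM in WT. Both rows were lower in rea1, and the sum was 9.09-fold lower. Position A came next, and after it a position of chromosome 5 at 76709614 to 76718411. There row 1 had 21.8 FPKM in rea1 against 80.9 in WT, 3.71-fold lower, while row 2 ran against it with 1.003 FPKM in rea1 against 0.11 in WT.

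Next in order lay a position of chromosome 2 at 10001775 to 10007831. Its row 2 had 5.38 FPKM in rea1 against 13.0 in WT, and its row 1 had 0.25 FPKM in rea1 against 2.59 in WT. Another lay on chromosome 3 at 188377658 to 188384310, where row 3 had 4.38 FPKM in rea1 against 14.3 in WT, 3.28-fold lower, and the other rows stayed below 1 FPKM in both libraries. Over the 175 positions, 15 were 2-fold higher and 9 were 2-fold lower in rea1, against 15.6% and 8.01% of the 2423 positions of any kind that reached 10 FPKM.

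At 5 of the 316 expressed positions (1.58%) every row was listed at 0 in rea1, and at none was every row listed at 0 in WT. Among all 5829 expressed positions these shares were 3.71% in rea1 and 3.14% in WT. The highest of the 5, on chromosome 10 at 39922729 to 39924376, had a sum of 12.7 FPKM in WT from rows of 5.81 and 6.87 FPKM. The other 4 had sums of 1.89 to 6.11 FPKM in WT.

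One row usually held most of a position's sum. The leading row, the one with the highest FPKM, held a median of 94.1% of the sum in rea1 (311 positions with a sum above 0) and 92.3% in WT (316 positions). The middle 50% of positions had leading shares of 74.8% to 99.7% in rea1 and 75.8% to 100% in WT. A leading share of 90% or more was found at 175 positions in rea1 and 174 in WT, and a share under 60% at 25 in rea1 and 22 in WT. At 152 positions the same row held 90% or more in both libraries.

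The same row led in rea1 and WT at 294 of the 311 positions with a leading row in both libraries, and the leading row differed at 17 (5.47%). As an outside measure, added after the data had been seen, pairs of consecutive positions with 1 row each were read in the same way, and 8.83% of 7595 such pairs had the higher member exchanged between libraries. For positions of exactly 2 rows, the form that matches a pair, it was 13 of 290 (4.48%). The neighbours were more unequal to begin with, with a median leading share of 98.2% in WT, against 93.2% for positions of 2 rows. Where the leading row held 50 to 60% in WT, it differed at 5 of 18 positions of 2 rows (27.8%) and in 38.7% of 488 neighbour pairs. Where it held 60 to 75%, it differed at 3 of 46 (6.52%) and in 19.4% of 876 pairs. These shares were not tested.

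Only 2 exchanges of the leading row involved rows that each reached 10 FPKM in the library where they led. At position C, on chromosome 5 at 938132 to 948768, row 2 had 58.9 FPKM in rea1 against 17.3 in WT, 3.41-fold higher. Row 3 had 30.2 FPKM in rea1 against 35.6 in WT, and row 1 was listed at 0 in both. Row 3 thus held 33.9% of the sum in rea1 and 67.3% in WT, while the sum was 89.1 FPKM in rea1 against 52.8 in WT, 1.69-fold higher. At position B, on chromosome 4 at 201924320 to 201966354, row 2 had 57.7 FPKM in rea1 against 14.6 in WT, 3.94-fold higher, and row 1 had 20.1 FPKM in rea1 against 17.6 in WT. Row 1 held 25.8% of the sum in rea1 and 54.5% in WT. At both positions the exchange came with a higher level of the row that led in rea1, and the row that led in WT differed by less than 1.2-fold.

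**Figure D3:**
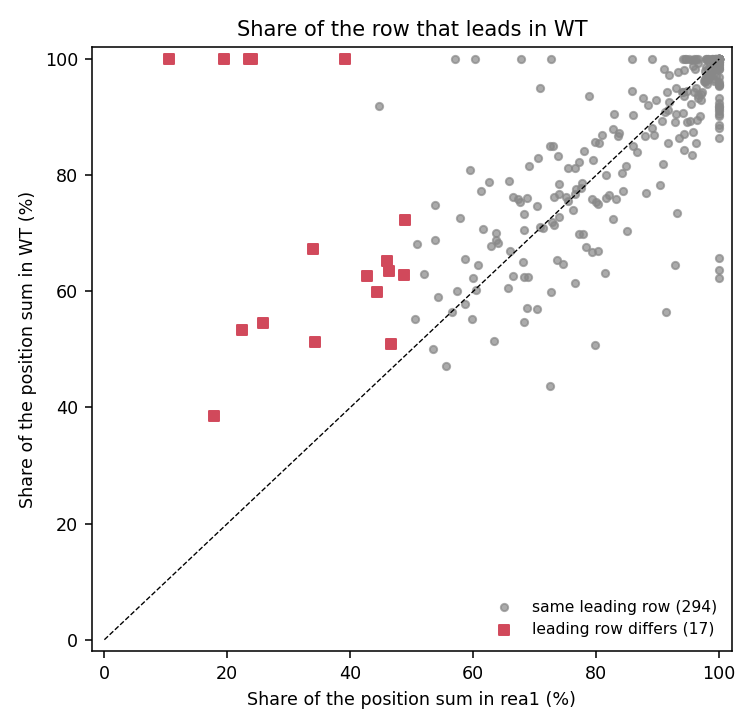
For the 311 positions with a leading row in both libraries, the share of the position's sum held by the row that leads in WT is plotted in percent, with its share in rea1 on the horizontal axis and in WT on the vertical axis. The 294 positions with the same leading row (grey) lie mostly near the dashed line of equal shares, and the 17 with different leading rows (red squares) lie at its left, 5 of them with a WT share of 100%.

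The other 15 exchanges were found at lower levels, and in 13 of the 17 no row reached 10 FPKM. At 5 of the 17 the row that led in rea1 was listed at 0 in WT, while at none was the row that led in WT listed at 0 in rea1. These 5 include the chromosome 8 position with 12.8 FPKM given above. Another, on chromosome 4 at 181450917 to 181455163, had 8.04 FPKM in rea1 against 0 in WT in row 1, and 2.48 FPKM in rea1 against 3.81 in WT in row 2. On chromosome 5, at 39923031 to 39930244, row 1 had 5.84 FPKM in rea1 against 0 in WT, and row 2 had 3.77 FPKM in rea1 against 4.19 in WT. In these 3 the row present in both libraries differed by less than 2-fold. The summed level at the 17 positions was 2-fold higher in rea1 at 7, 2-fold lower at 1 and within 2-fold at 9. Over all 5829 expressed positions 12.4% were 2-fold higher and 9.69% were 2-fold lower. A row listed at 0 in WT that leads in rea1 adds to the rea1 sum alone. The counts at the 17 are thus not independent of the exchange and were not tested.

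Some exchanges rested on small differences or few fragments. On chromosome 1, at 298391949 to 298398559, row 1 had 8.50 FPKM in rea1 against 9.67 in WT, and row 2 had 10.01 FPKM in rea1 against 5.17 in WT, so the leading row held 54.1% in rea1 and 65.2% in WT. On chromosome 2, at 63795715 to 63796972, the rows had 1.11 and 1.28 FPKM in rea1 and 0.47 and 0.46 in WT, so the order turned on a very small difference in WT. A rough estimate of fragments follows from the span and the lowest values in the files. At that position the estimate was 18.7 fragments for the higher row in rea1 and 5.51 in WT. At 4 of the 17 positions both leading rows stood for an estimated 100 fragments or fewer. When a leading row had to exceed the next by 1.5-fold in both libraries, 6 exchanges were left among 274 positions.

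Exchanges were also found at positions with 3 rows. On chromosome 10, at 145614824 to 145622042, the rows had 2.80, 3.44 and 9.52 FPKM in rea1 and 3.10, 2.92 and 2.003 FPKM in WT. Row 3, the lowest in WT with 25% of the sum, led in rea1 with 60.4%, and was 4.75-fold higher there, while rows 1 and 2 differed by less than 1.2-fold. On chromosome 1, at 212379446 to 212405575, row 2 had 9.04 FPKM in rea1 against 2.11 in WT and row 3 had 7.81 FPKM in rea1 against 3.77 in WT. Both rows were more than 2-fold higher in FPKM in rea1, with row 2 leading in rea1 and row 3 in WT.

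All 4 positions with 4 rows, the largest number, were expressed. On chromosome 9, at 131819226 to 131842423, the rows had 2.88, 1.17, 10.5 and 25.6 FPKM in rea1 and 2.78, 0.42, 9.09 and 28.8 FPKM in WT. The order of its rows was the same in both libraries. On chromosome 1, at 290210590 to 290232390, row 2 had 72.7 FPKM in rea1 against 45.2 in WT, and the other rows were listed at 0 in rea1 and reached at most 2.004 FPKM in WT.

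The other 2 positions of 4 rows were low and less alike between libraries. On chromosome 2, at 28145413 to 28170094, the rows had 0, 1.79, 1.55 and 0.67 FPKM in rea1 and 0.21, 4.08, 0.14 and 0 FPKM in WT. Row 2 led in both, with 44.6% of the sum in rea1 and 92.0% in WT. The longest shared position, 150713 bp on chromosome 1 at 165830871 to 165981583, had 2 silent rows. Its row 2 had 2.58 FPKM in rea1 against 8.45 in WT and its row 4 had 2.70 FPKM in rea1 against 3.24 in WT, so that row 4 led in rea1 and row 2 in WT.

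Where both sums reached 10 FPKM, shares were close between the libraries. In these 158 positions the row leading in WT had a median absolute change of share of 2.25 percentage points, the change was under 5 points at 109, and it was 10 points or more at 15. Of those 15, the share was higher in rea1 at 6 and lower at 9. The leading row differed at 3 of the 158. Leading shares were high to begin with, with a median of 92.3% in WT over the 316 expressed positions. Such shares have little room to move, and at 15 of the 158 the share was equal. No value of this measure is given for neighbouring pairs, so the closeness does not set shared positions apart.

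At some positions the division was nearly identical, though these were chosen after the values were seen. On chromosome 4, at 23448577 to 23452318, the rows had 13.2 and 10.2 FPKM in rea1 and 13.7 and 10.6 in WT, and row 1 held 56.5% in both. On chromosome 2, at 218011745 to 218014457, the rows had 31.3 and 103 FPKM in rea1 and 45.0 and 148 in WT, so that each was lower in rea1 by nearly the same factor and row 2 held 76.6% in rea1 and 76.7% in WT. On chromosome 5, at 183195023 to 183199736, the rows had 136 and 56.0 FPKM in rea1 and 110 and 44.9 in WT, with 70.8% held by row 1 in rea1 and 71.0% in WT.

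The largest changes of share at this level included positions B and C. On chromosome 4, at 16399393 to 16400476, row 2 had 10.4 FPKM in rea1 against 8.33 in WT, and row 1 was listed at 0 in rea1 and had 4.35 FPKM in WT. The share of row 2 was thus 100% in rea1 and 65.7% in WT, the largest change of the 158 positions. On chromosome 8, at 21879184 to 21881934, row 1 had 32.7 FPKM in rea1 against 36.8 in WT, and row 2 had 12.3 FPKM in rea1 and was listed at 0 in WT. On chromosome 1, at 276396791 to 276431002, row 1 had 13.1 FPKM in rea1 against 5.64 in WT and row 2 had 15.2 FPKM in rea1 against 16.8 in WT, so that the leading row 2 held 53.8% in rea1 and 74.9% in WT. In all 5, counting B and C, 1 of the 2 highest rows lay within 1.3-fold between libraries while the other differed by 2-fold or more. These 5 were picked for their change of share, so unlike ratios of their rows largely follow from that choice.

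The 2 highest rows of a position tended to differ from WT in the same direction. In 36 positions both rows reached 10 FPKM, and their log2 ratios had the same sign in 27 (75%). Pearson's correlation between these ratios was 0.65 and Spearman's rho was 0.62. Without position A the correlation was 0.62 over 35 positions. In 513 neighbouring pairs of single-row positions at the same level, 57.3% had the same sign and the correlation was 0.07. In 158 positions with both rows at 1 FPKM or more the correlation was 0.39, and in 2753 neighbouring pairs it was 0.05. All points share the same 2 libraries, rows of one position may also share fragments, and a median of 55489 bp lay between the neighbours, so these values are descriptions.

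**Figure D4:**
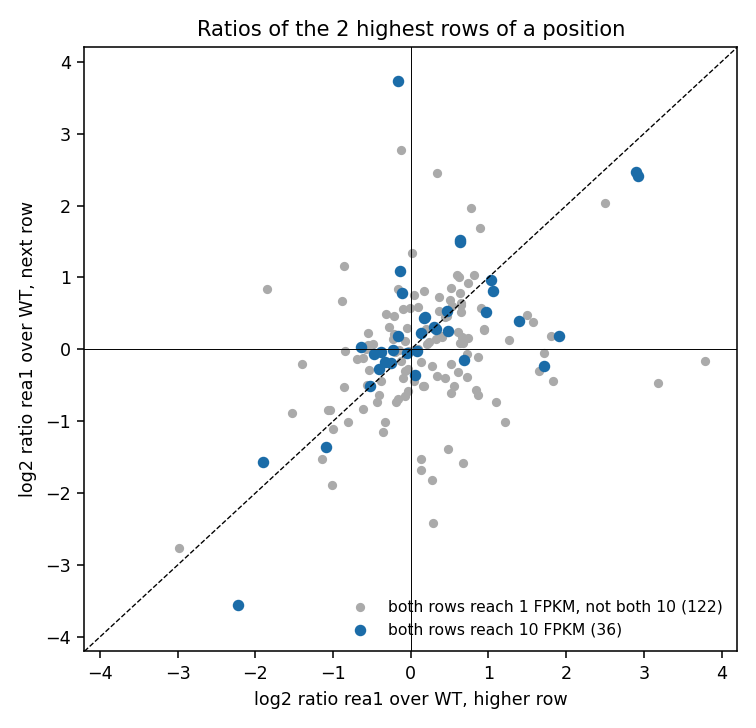
The log2 ratio (rea1 over WT, pseudocount 1) of the next row is plotted against that of the higher row of the same position, in blue for the 36 positions where both rows reach 10 FPKM and in grey for 122 where both reach 1 FPKM only. Blue points lie mainly in the lower left and upper right quadrants, and grey points scatter more widely.

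By 2-fold calls, it was uncommon for both rows to differ, whether in the same direction or in opposite ones. Most often neither row differed, and next most often 1 row alone did. Of the 36 positions with both rows at 10 FPKM, both were 2-fold higher at 2, both were 2-fold lower at 3, 1 row alone differed at 9 and neither did at 22. Among the 513 neighbouring pairs at this level these counts were 16, 11, 180 and 293. None of the 36 had its 2 highest rows apart in opposite directions, against 2.53% of the 513 pairs. So few positions cannot be told apart from that share. Of the 158 with both rows at 1 FPKM, both were higher at 3, both lower at 6, 1 alone differed at 43 and neither at 105. Among the 2753 neighbouring pairs these counts were 51, 35, 918 and 1696. The remaining position of the 158 had its 2 highest rows apart in opposite directions, while 1.93% of the 2753 pairs did. It lay on chromosome 4 at 34954639 to 34964831, where row 2 had 73.2 FPKM in rea1 against 31.1 in WT and row 1 was listed at 0 in rea1 and had 1.01 FPKM in WT. With position A, whose opposing row is its least abundant one, 2 of the 316 positions had rows 2-fold apart in opposite directions.

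Taken row by row, 45 of the 482 rows at 1 FPKM or more were 2-fold higher in rea1 and 39 were 2-fold lower, together 17.4%, against 22.0% of all 5995 such rows in the files, of which 12.3% were higher and 9.67% lower. Their median log2 ratio was 0.09, as was that of all rows.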

How the data were processed

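The authors deposited FPKM values, named per the file headers, in 1 file for rea1 and 1 for WT with the same rows in the same order. Bowtie 0.12.2 is named per the submitters' processing notes. Not given in the sources used here are the program that estimated FPKM, the build, the annotation and any pooling. Members and lists were chosen with earlier results of these data known. The rule for naming positions took sums of 500 FPKM, the 5 highest and 5 lowest ratios among positions with a row at 10 FPKM, exchanged leading rows and opposed rows at 10 FPKM, positions of 4 rows and the 5 largest changes of share. All other positions given by coordinates were chosen after their values were seen. Values were used unscaled, and a pseudocount of 1 was added before log2. Starts count from 0 in the files and are printed 1 higher. This was read mainly from single-row spans, which are then most often multiples of 3 (40%, against 30.2% and 29.8% for remainders 1 and 2). For shared positions these shares were 36.5%, 29.5% and 34.0%, and thus less distinct.

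The files hold no counts, so depth is known only roughly. Over single-row positions of 1000 to 3000 bp with a span divisible by 3, the product of FPKM and span in kilobases had a second percentile, zeros left out, of 0.0858 for rea1 and 0.108 for WT. Taken as 1 fragment, this makes 1 FPKM over 1 kb about 11.6 fragments in rea1 and 9.27 in WT. Transcripts are no longer than the span, so using the span raises fragment numbers. The factors rest on spans too and may be too low, so these numbers are rough estimates and not limits. The results were also computed with pseudocounts of 0.1 and 10, scaling by the median ratio or by a mean of log ratios trimmed by 30% (5% by level) at either end, thresholds of 1.5-fold and 4-fold, other minimum levels, a span minimum, merging of rows with equal values, and margins on the leading row. The steps were tested on simulated data. The software was matplotlib 3.10.9, numpy 2.4.6, scipy 1.17.1, pandas 2.3.3 and Python 3.11.15.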

Additional observations from a re-analysis of the deposited data

How the results depend on the processing

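Positions with a sum 2-fold higher and lower in rea1 numbered 28 and 24, but 10 and 5 when the pseudocount was 10, 15 and 9 when a row at 10 FPKM was required, and 66 and 49 or 4 and 5 at thresholds of 1.5-fold and 4-fold. With the median ratio scaled to 0 they were 15 and 31, and the median log2 ratio was -0.074, while trimmed mean scaling gave 23 and 26 with a median of 0.064. The median was 0.24 for positions with a row at 10 FPKM. With 1 FPKM required in both libraries, 15 positions were lower. Different leading rows were found at 28 positions with any row above 0, at 4 with a row at 10 FPKM, at 6 with a 1.5-fold margin and at 8 with a margin of 1 FPKM. Rows apart in opposite directions were found at 9 positions when 0.1 was the pseudocount, at 1 when it was 10, at 11 and 0 with thresholds of 1.5-fold and 4-fold, and at 1 without position A, an alternative chosen after seeing the data. The causes were not tested. Of 66 values under the alternatives, 45 stayed within 1.5 times the reported count or within the 95% binomial interval of the median, among them all median leading shares. That interval treats positions as independent draws and does not measure replicate error. The span minimum and the merging of equal rows changed nothing, since no shared position is under 500 bp and no rows had equal values above 0. All values under these 2 settings are among the 45, so they say nothing about how stable the results are. No paired analysis was possible because rea1 and WT have 1 library each, which also leaves none to omit.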
